A study of Mus musculus with 9 samples.

Results

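Genes of the interferon response and of nucleic acid sensing were followed in cultured primary myoblasts of the mouse, cells that can still divide and later fuse into muscle fibres, with and without Uqcrfs1. Uqcrfs1 encodes the Rieske iron-sulphur protein, a catalytic subunit of complex III of the mitochondrial respiratory chain. The set was chosen by symbol: 37 interferon pathway genes were matched to the rows of a gene count table from bulk RNA sequencing, which holds 55536 genes, and all 37 had a row. By role the set held 5 signalling factors, 6 sensors of RNA or DNA and their adaptors, 17 antiviral effectors, the ubiquitin-like modifier Isg15 with its protease Usp18, 3 genes of ADP-ribosylation and 4 genes of class I antigen presentation.

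All cells came from mice with floxed Uqcrfs1 alleles and all were infected with an adenovirus. The floxed vehicle group (genotype uqcrfs1 +/+ (floxed)) received a virus for green fluorescent protein and then DMSO. The knockout vehicle group (genotype uqcrfs1 -/-) received a virus for Cre recombinase and then DMSO. The knockout oxybutynin group received the Cre virus and then oxybutynin at 7.5 µM, a drug that blocks muscarinic acetylcholine receptors. Flasks were seeded 72 h after infection, and the drug or its solvent was added 24 h later for 5 days. Each group held 3 libraries. Infection was shared by every group analysed, and genotype and the kind of virus cannot be told apart. No floxed cells on oxybutynin were analysed here. The sources used here do not give the strain, age or sex of the mice. The labels do not state whether the 3 libraries of a group came from different cultures or mice, so p-values here reflect the spread among libraries, which may be technical only.

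Cells detect foreign or misplaced nucleic acid with receptors such as RIG-I and MDA5 for RNA, which signal through MAVS on the outer mitochondrial membrane, and cGAS for DNA, which signals through STING. These routes activate IRF3 and IRF7 and can induce type I interferon, which acts through its receptor, the JAK kinases and a complex that holds STAT2 and IRF9. That complex binds the interferon-stimulated response element (ISRE) in promoters, while interferon-gamma acts through the gamma-activated site (GAS). Mitochondrial RNA and DNA that leave the organelle can engage the same sensors, and class I antigen presentation is part of the induced programme and is also driven by the transactivator NLRC5.

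The libraries held between 19604971 and 26226949 counts. Uqcrfs1 was at 79.6 ± 3.67 counts-per-million (CPM, of the TMM-scaled library) in floxed cells, 2.45 ± 0.356 in knockout cells on vehicle and 2.56 ± 0.437 in those on oxybutynin (SD, n = 3 each), which matches the labels of all 9. The sources used here do not say which exon the loxP sites flank. All 8 myoblast markers were detected, with a summed level between 4099 and 5260 CPM. Between the vehicle groups 2 of the 8 were called higher in knockout cells, Des (log2 fold change 0.43) and Pax7 (0.26), where 29.9% of all genes tested were. Called lower were 3, Cdh15 (-0.88), Myog (-0.55) and Myf5 (-0.39), against 33.4% of all genes. With a trend on GC content and length taken out, 1 was called higher, Myf5 (0.25). Then 6 were lower, among them Des (-0.15) and Pax7 (-0.23), where all genes gave 23.1% higher and 37.7% lower. Of 8 fibroblast markers 5 were tested, of which Thy1 (1.95), Col1a1 (1.36) and Ly6a (1.05) were higher and Col3a1 (-0.18) lower. Their summed level was 272 to 291 CPM in floxed cells and 288 to 292 in knockout cells on vehicle, with Lum at 0 in every library and Dpt at 0 to 1 counts. Of 12 leukocyte markers, 2 to 4 were at 0 in each library, Ptprc (CD45) had 0 to 8 counts and the T cell gene Cd3e at most 1. Their summed level was 37.3 to 43.3 CPM in floxed cells, 31.7 to 39.4 in knockout cells on vehicle and 39.7 to 39.9 in those on oxybutynin, nearly all of it from Laptm5, lower in knockout than in floxed cells on vehicle (log2 fold change -0.61 ± 0.11, adjusted p = 9.18e-05), and Cd68, higher (1.19 ± 0.13, adjusted p = 4.16e-07). Of the other leukocyte markers tested, Csf1r was higher (1.16 ± 0.46, adjusted p = 0.0289), at 3 to 6 counts in floxed cells and 10 to 12 in knockout cells on vehicle. That call was lost without the GC and length trend (0.71, adjusted p = 0.175). Adgre1 (-0.48) and Fcer1g (0.80) were not called. The part of these markers' cells in the results was not tested. In bulk RNA, fewer cells of a type and less RNA per cell cannot be told apart. Knockout vehicle libraries were not uniform: replicate 2 had 2.71% of its counts from the mitochondrial genome against 2.04% and 1.95% in the others, and replicate 3 correlated more closely with the oxybutynin libraries (Pearson r of log2 CPM over genes from 0.992 to 0.993) than with its own group (0.986 and 0.990).

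The set spanned a wide range of levels. Per length, in transcripts-per-million (TPM, mean of all 9 libraries), B2m, the light chain of class I molecules, was highest at 499, followed by the membrane proteins that block viral entry, Ifitm3 at 331 and Ifitm2 at 80.1. Mavs stood at 50.8, the ubiquitin ligase Trim25 at 27.1, Irf3 at 24.2, the large ligase Rnf213 at 22.9 and the RNA-editing enzyme Adar at 22 TPM. The genes best known as markers of an interferon response stood far lower. Isg15 was at 1.50 TPM, the antiviral enzyme Rsad2 (viperin) at 1.13, the RNA-binding Ifit1 at 0.80, Oasl1 at 0.72 and the antiviral GTPase Mx1 at 0.01. In counts, 13 of the 37 genes exceeded 100 in every library and 5 stayed under 10 in every library.

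**Figure D1:**
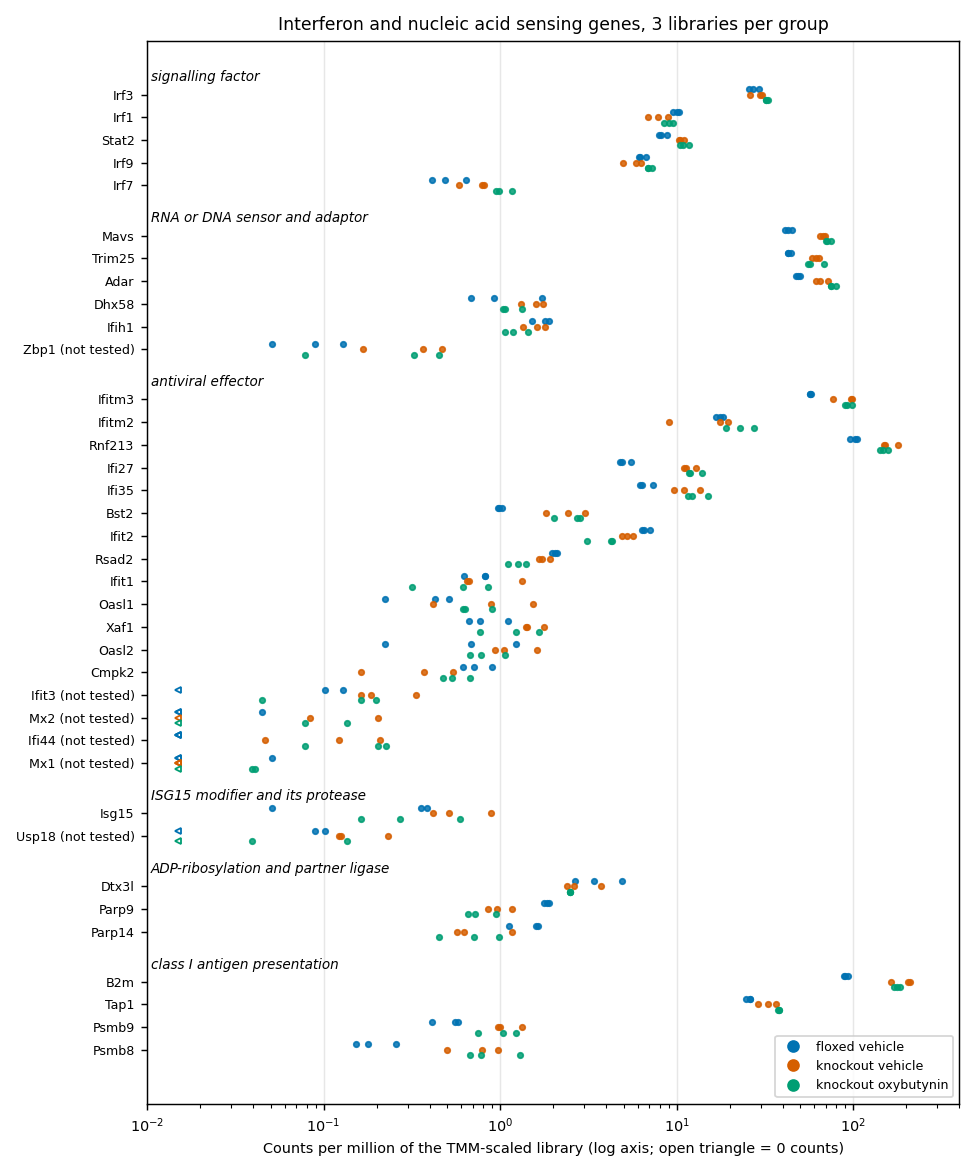
Level of each of the 37 genes in each library, in counts-per-million on a log axis, grouped by role; blue points are floxed vehicle, orange knockout vehicle and green knockout oxybutynin libraries (3 each), and open triangles mark 0 counts. B2m, Ifitm3, Rnf213, Mavs, Trim25 and Adar sit at the right, while Mx1, Mx2, Ifi44, Usp18, Ifit3 and Zbp1 stay near 0 in all groups.

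A filter on low counts left 31 of the 37 genes for testing. The 6 others were Zbp1, Ifit3, Mx1, Mx2, Ifi44 and Usp18, none of which had more than 10 counts in any library. Zbp1, a sensor of Z-form nucleic acid, had 1, 3 and 2 counts in floxed cells, 10, 4 and 9 in knockout cells on vehicle and 8, 2 and 10 in those on oxybutynin. Ifi44 had 0 counts in floxed cells, 1, 5 and 3 in knockout cells on vehicle and 5, 2 and 5 in those on oxybutynin. Added up, the 6 genes gave 6, 6 and 5 counts in floxed cells, 20, 22 and 24 in knockout cells on vehicle and 18, 13 and 22 in those on oxybutynin, so both knockout groups lay above the floxed group without overlap. When no filter was applied, edgeR called Zbp1 and Ifi44 higher in knockout cells on vehicle than in floxed cells and none of the 6 lower, on these few counts. All 30103 genes in that fit gave 17.3% higher and 17.5% lower. A count of 0 allows up to 3 counts, or between 0.114 and 0.153 CPM of these library totals, and this covers counting error only.

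Transcripts of the interferons themselves were at or next to 0. None of 10 interferon genes listed could be tested. Ifnb1, the first interferon made on sensing, had 0 counts in 8 libraries and 1 count in knockout oxybutynin replicate 3. Ifng, Ifna1, Ifna4, Ifna5, Ifnk, Ifnl2 and Ifnl3 were at 0 in every library, Ifna2 had 1 count in each of 2 libraries, and Ifne had at most 2.

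Promoter sequences show which of the genes carry the letters of the interferon elements. RefSeq windows of 300 bases (GRCm38.p6, 250 before the annotated start to 50 after) matched 29 of the 37 genes; Dhx58, Zbp1, Mx1, Mx2, Ifi27, Usp18, Parp9 and Parp14 had none. Both strands were searched for the ISRE core, which is GAAA, any 2 bases and GAAA again, and for the GAS form TTCNNNGAA, which can overlap each other. The ISRE core was present in 10 of 29 genes (34.5%), against 3.99% of all 27025 genes with a window, and the GAS form in 7 of 29 (24.1%), against 9.55%. A match is a description of letters, not of binding. The stretches below are the 160 bases before the annotated start of 4 genes, 5′ to 3′ on the gene's strand, with ISRE core and GAS letters in capitals. Ifitm2 was taken by a set rule and B2m, Bst2 and Isg15 after their values were seen. They are shown because genes with the same core letters differed in level or call. Between the vehicle groups B2m (log2 fold change 1.09) and Bst2 (1.29) were called higher in knockout cells, and Ifitm2 (-0.19) was not called. Isg15, at 1 to 22 counts per library, was not called by edgeR (1.15, adjusted p = 0.0795). It passed the filter on low counts only through knockout libraries, so its change is not compared with that of B2m.
B2m (chr2:122147527-122147686, plus strand): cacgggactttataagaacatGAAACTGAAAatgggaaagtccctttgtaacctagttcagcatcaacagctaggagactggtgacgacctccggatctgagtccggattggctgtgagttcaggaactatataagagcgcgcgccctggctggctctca
Bst2 (chr8:71537473-71537632, minus strand): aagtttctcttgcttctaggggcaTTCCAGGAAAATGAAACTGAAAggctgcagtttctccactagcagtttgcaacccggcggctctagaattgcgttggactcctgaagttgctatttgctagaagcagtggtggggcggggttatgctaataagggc
Ifitm2 (chr7:140955962-140956121, minus strand): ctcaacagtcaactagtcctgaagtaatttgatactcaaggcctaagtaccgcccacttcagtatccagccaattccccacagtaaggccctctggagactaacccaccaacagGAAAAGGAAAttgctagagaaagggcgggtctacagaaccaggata
Isg15 (chr4:156200819-156200978, minus strand): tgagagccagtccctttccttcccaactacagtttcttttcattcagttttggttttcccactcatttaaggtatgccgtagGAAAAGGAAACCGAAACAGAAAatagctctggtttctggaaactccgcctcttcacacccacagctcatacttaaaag

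Isg15 held 3 overlapping ISRE cores, the first beginning at position -78 from the start, and Bst2 held 2, at -130 and -124, overlapped by a GAS form at -136. B2m held 1 ISRE core at -139 and Ifitm2 1 at -46. Ifit1, Ifit3 and Ifitm3 also held 2 cores each, and Stat2, Ifih1 and Rsad2 held 1 each. Psmb8 held a GAS form at -97 and no ISRE core. It had the highest fold change of the 31 genes tested in knockout cells on vehicle, but passed the filter on low counts only through knockout libraries. Of the 14 genes that rose in knockout vehicle cells and had a window, 4 held an ISRE core, as did 0 of 2 that fell and 5 of 11 not called. The GAS form was in 5, 1 and 1 of these.

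The first comparison, between the genotypes on vehicle alone, asks how these genes differ when Uqcrfs1 is lost. Class I presentation genes, several interferon-inducible membrane and ubiquitin-ligase genes and the adaptor Mavs were higher in knockout cells, while Parp9, Parp14, Cmpk2 and Irf1 were lower. With the GC and length trend removed, Mavs and the class I gene Psmb9 were not called and Tap1 turned sign (-0.17). The calls of Parp14, Cmpk2 and Irf1 were lost when some single libraries were left out. Of 31 genes tested, 15 rose, 4 fell and 12 were not called by edgeR's quasi-likelihood test (adjusted p under 0.05, Benjamini-Hochberg over all genes tested). Called genes made up 61.3% of the set, near the 63.3% of all 15720 genes tested, so the share called is no property of these genes. In direction, 29.9% of all genes were called higher and 33.4% lower. The median log2 fold change was 0.47 for the 31 genes and -0.01 for all genes. The groups did not overlap for 20 of the 31 genes, against 66.7% of all genes. Psmb8 and Isg15 passed the filter without any floxed library above its minimum, and the counts of genes called include them.

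**Figure D2:**
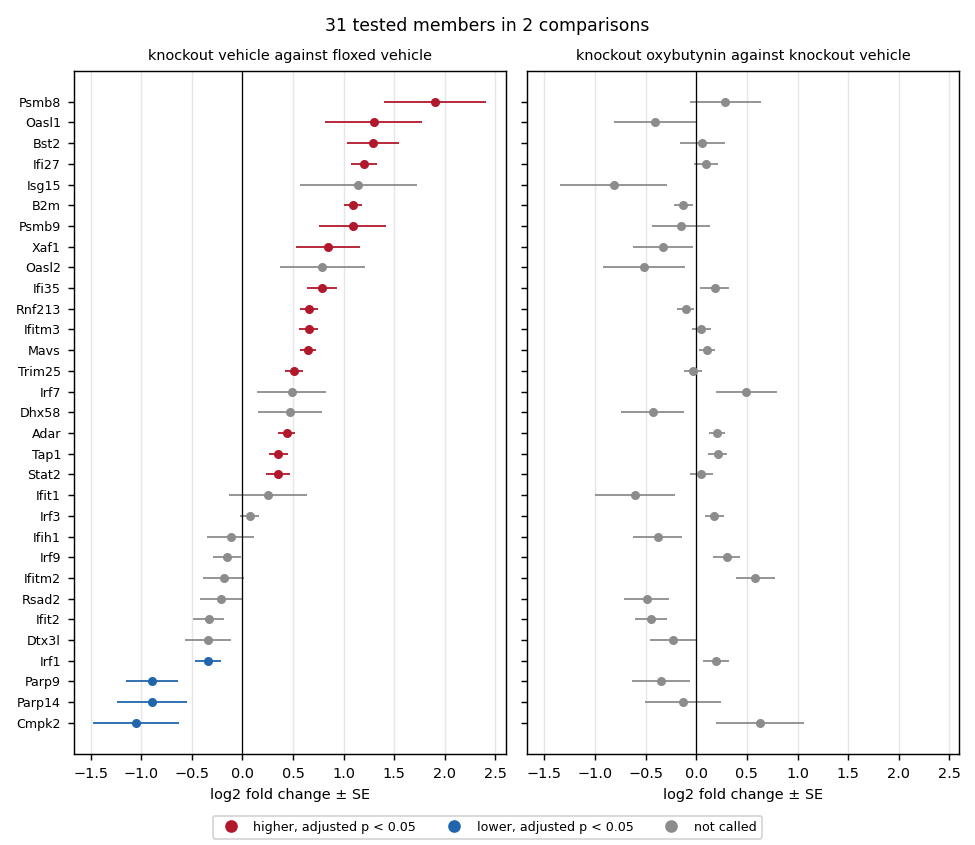
Log2 fold change ± SE of the 31 tested genes, ordered by the first comparison, for knockout vehicle against floxed vehicle (left) and knockout oxybutynin against knockout vehicle (right); red points are called higher, blue lower and grey not called at an adjusted p under 0.05. On the left 15 points are red and 4 blue, and on the right all 31 are grey.

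B2m, Psmb9 and Tap1 of the class I genes rose. With a trend on GC content and length taken out Psmb9 was not called. Tap1 was then at -0.17 and not called, where the median of all genes was -0.13. Psmb8 was called higher as well, but passed the filter on low counts only through knockout libraries, so its test is no independent support for the group. B2m was at 93.0, 88.9 and 89.5 CPM in floxed cells, 209, 205 and 164 in knockout cells on vehicle and 177, 169 and 184 in those on oxybutynin. Every knockout library lay above every floxed library. Between the vehicle groups B2m rose 2.13-fold (log2 fold change 1.09 ± 0.09 SE, adjusted p = 1.46e-08). Psmb8, an interferon-inducible catalytic subunit of the immunoproteasome, had few counts: 3, 6 and 4 in floxed cells, 17, 12 and 24 in knockout cells on vehicle and 19, 33 and 15 in those on oxybutynin. The groups again did not overlap between genotypes, and the log2 fold change was 1.90 ± 0.51 (adjusted p = 0.00177). Psmb9, another inducible subunit, had 8, 13 and 13 counts in floxed cells, 21, 24 and 33 in knockout cells on vehicle and 30, 19 and 23 in those on oxybutynin, a change of 1.09 ± 0.33 (adjusted p = 0.00758). Tap1, a subunit of the peptide transporter, was at 26.2, 26.0 and 24.7 CPM in floxed cells, 32.9, 29.0 and 36.4 in knockout cells on vehicle and 37.6, 38.2 and 38.1 in those on oxybutynin. Its change was the smallest of the 4 (0.36 ± 0.10, adjusted p = 0.00381). Of the leukocyte and fibroblast markers, Cd68, Csf1r, Thy1, Col1a1 and Ly6a were higher in knockout cells on vehicle, and Laptm5 and Col3a1 were lower (values given above). The part of these markers' cells in the class I result was not tested.

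These genes lie at 2 loci (GRCm38, GENCODE M21). Psmb9 (chromosome 17, 34181987 to 34187764, minus strand), Tap1 (34187553 to 34197225, plus strand) and Psmb8 (34197721 to 34201454, plus strand) are neighbours in the major histocompatibility complex, and B2m lies on chromosome 2 (122147686 to 122153083, plus strand). The RefSeq starts of Psmb9 and Tap1 are 226 bases apart and face away from each other. Annotated exons of Psmb9 and Tap1 overlap by 212 bases on opposite strands, and how reads were assigned by strand is not known here, so reads in that stretch could have been given to either gene. Psmb8 shares 498 bases with an antisense gene, and its RefSeq window lies within an annotated first exon, so its letters are not printed.

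The rest of the class I pathway moved in part with them. Of 18 further genes listed, all tested, 11 rose and 3 fell (median log2 fold change 0.42), where 29.9% of all genes were higher and 33.4% lower. With the GC and length trend removed the list had 6 higher and 4 lower and a median of -0.01. All genes then gave 23.1% higher, 37.7% lower and a median of -0.13. The heavy chain gene H2-K1 went from 76, 88 and 83 counts in floxed cells to 425, 483 and 554 in knockout cells on vehicle and 629, 537 and 478 in those on oxybutynin, a 5.50-fold rise between the vehicle groups (log2 fold change 2.46 ± 0.13, adjusted p = 4.89e-11). H2-D1, the second classical heavy chain, rose by 2.12 ± 0.14 (adjusted p = 8.6e-10). The heavy chain genes of this family resemble each other closely, so reads may have been split between them. Nlrc5, the transactivator of class I genes, rose from 45, 42 and 66 counts to 273, 332 and 284 (2.44 ± 0.17, adjusted p = 9.46e-10), and Tap2, the partner of Tap1, rose by 0.85 ± 0.12 (adjusted p = 7.47e-06), or 0.26 without that trend. The 3 genes that fell were the peptide-trimming protease Erap1 (-1.16 ± 0.15, adjusted p = 3.33e-06), the chaperone Canx (-0.79 ± 0.09, adjusted p = 9.38e-07) and the disulphide isomerase Pdia3 (-0.46 ± 0.09, adjusted p = 0.000324). Without the trend these were at -0.46, -0.24 and -0.50.

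The third inducible subunit, Psmb10, was not called (0.24 ± 0.14, adjusted p = 0.152) and was called lower without the GC and length trend (-0.28, adjusted p = 0.034). The constitutive proteasome subunits were measured beside these. Psmb5, whose sign turned without the GC and length trend (-0.11), was at 15.8 ± 0.117 CPM in floxed and 20.3 ± 3.64 in knockout cells on vehicle (log2 fold change 0.36 ± 0.14, adjusted p = 0.0265), a call that was lost without any single floxed library (adjusted p from 0.0604 to 0.0681), without knockout vehicle replicate 1 (0.097) and without replicate 3 (0.0691). Psmb6 was at 0.11 ± 0.12 (adjusted p = 0.438) and became called without knockout vehicle replicate 2 (0.29, adjusted p = 0.00399). Psmb7 was at 0.02 ± 0.08 (adjusted p = 0.839), or 0.71 and called higher without the trend.

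**Figure D3:**
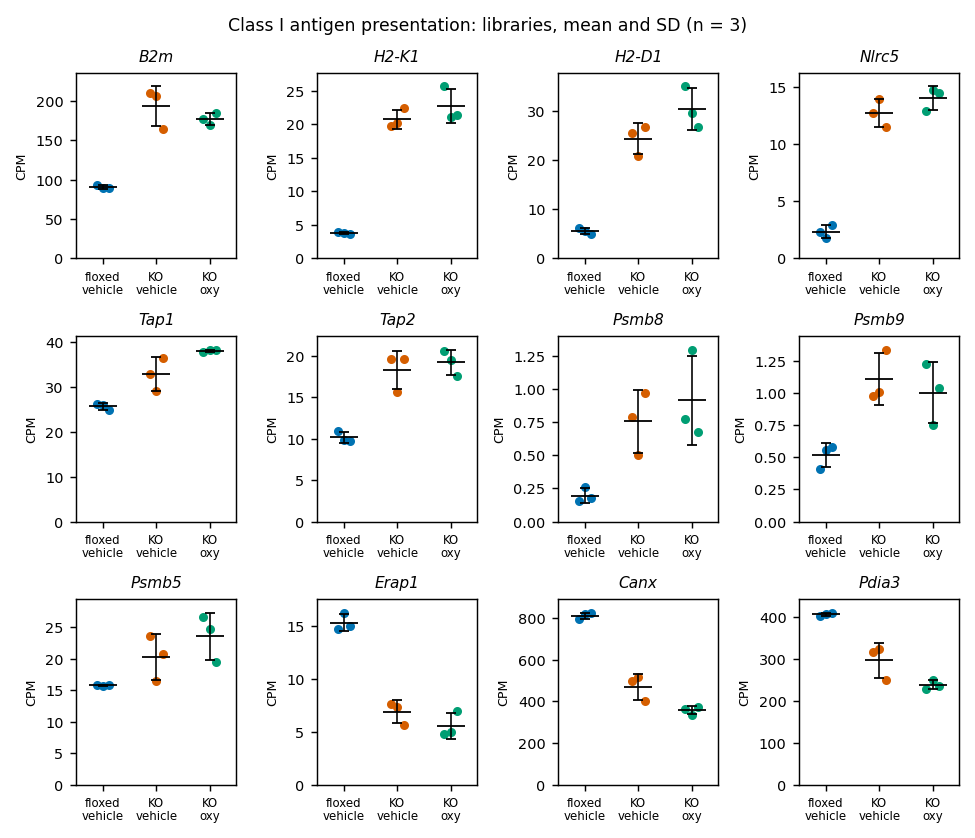
Class I antigen presentation genes by library, in counts-per-million on linear axes from 0, with the mean (long bar) and SD (short bars) of 3 libraries per group. B2m, H2-K1, H2-D1, Nlrc5, Tap1, Tap2, Psmb8 and Psmb9 are higher in both knockout groups than in floxed cells (once the GC and length trend is removed, Psmb9 is not called and Tap1 turns sign), and Erap1, Canx and Pdia3 are lower.

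Among 17 antiviral effectors, 13 were tested, of which 7 rose, 1 fell and 5 were not called (median log2 fold change 0.66). The share called, 61.5%, was near the 63.3% of all genes. Ifi27, an inducible membrane protein, was at 4.80, 5.54 and 4.89 CPM in floxed cells, 10.9, 11.3 and 12.9 in knockout cells on vehicle and 13.9, 11.9 and 11.8 in those on oxybutynin. It rose 2.30-fold, with a log2 fold change of 1.20 ± 0.13 (adjusted p = 3.64e-07). Bst2 (tetherin), which holds budding virus at the cell surface, had 19, 23 and 23 counts in floxed cells, 39, 58 and 75 in knockout cells on vehicle and 67, 72 and 45 in those on oxybutynin. No knockout library overlapped the floxed group, and the change was 1.29 ± 0.26 (adjusted p = 0.000287). Ifitm3 was at 57.2, 57.8 and 57.1 CPM in floxed cells, 97.9, 76.4 and 96.8 in knockout cells on vehicle and 98.6, 91.8 and 90.4 in those on oxybutynin. Its change was 0.65 ± 0.09 (adjusted p = 1.04e-05). Rnf213 was at 96.3, 102 and 106 CPM in floxed cells, 152, 179 and 149 in knockout cells on vehicle and 141, 157 and 148 in those on oxybutynin, a change of 0.66 ± 0.09 (adjusted p = 3.36e-06). Ifi35, a partner of interferon-induced leucine zipper proteins, rose from 6.39, 6.23 and 7.34 CPM to 11.0, 9.71 and 13.6 (0.78 ± 0.15, adjusted p = 0.000203).

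For Xaf1, Oasl1 and Cmpk2, which had few counts, the call depended on single libraries. Xaf1, a pro-apoptotic interferon target, had 13, 18 and 25 counts in floxed cells and 30, 34 and 44 in knockout cells on vehicle (0.84 ± 0.32, adjusted p = 0.0265), and was not called without floxed replicate 1 (0.71, adjusted p = 0.0985), floxed replicate 2 (0.77, 0.0832) or knockout vehicle replicate 3 (0.73, 0.0987). Oasl1 had 10, 10 and 5 counts in floxed cells and 19, 10 and 38 in knockout cells on vehicle, so the groups overlapped. Its change of 1.30 ± 0.48 (adjusted p = 0.0207) was not called without floxed replicate 3 (1.02, adjusted p = 0.0948) or knockout vehicle replicate 3 (0.75, 0.199). Cmpk2, a mitochondrial nucleotide kinase, was the effector that fell, from 12, 21 and 16 counts to 8, 13 and 4 (-1.05 ± 0.42, adjusted p = 0.0337). It was not called without floxed replicate 2 (-0.88, adjusted p = 0.132) or 3 (-1.09, 0.0609) or knockout vehicle replicate 1 (-1.04, 0.0706) or 3 (-0.68, 0.149).

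Several classical interferon-stimulated genes showed no call. Ifit1 had 16, 19 and 14 counts in floxed cells and 14, 16 and 33 in knockout cells on vehicle (0.25 ± 0.38, adjusted p = 0.582). Rsad2 had 41, 46 and 46 counts in floxed cells and 41 in each knockout vehicle library (-0.21 ± 0.21, adjusted p = 0.395). Isg15 had 1, 9 and 8 counts in floxed cells, 11, 10 and 22 in knockout cells on vehicle and 4, 15 and 6 in those on oxybutynin. Its difference between the vehicle groups of 1.15 ± 0.58 (adjusted p = 0.0795) became called without knockout vehicle replicate 2 (1.37, adjusted p = 0.035), and the knockout oxybutynin libraries overlapped both other groups. Isg15 passed the filter on low counts only through knockout libraries, so its tests are no independent support for a rise. Oasl2 (0.79 ± 0.42, adjusted p = 0.108) became called without floxed replicate 1 (1.39, 0.0158). Ifit2 (-0.33 ± 0.15, adjusted p = 0.0623) became called without knockout vehicle replicate 2 (-0.38, 0.037). Ifitm2, at -0.19 ± 0.20 (adjusted p = 0.43), shares 268 bases of exon with another gene on its strand.

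Further interferon-stimulated genes outside the set went both ways. Of 60 listed, 30 were tested, of which 13 rose and 6 fell (median log2 fold change 0.27). The share called, 63.3%, equalled the 63.3% of all genes. With the GC and length trend removed these became 9 and 8 (median 0.07), where 23.1% of all genes were called higher and 37.7% lower. The secreted glycoprotein gene Lgals3bp rose from 2.31 ± 0.320 to 19.7 ± 3.21 CPM (log2 fold change 3.09 ± 0.16, adjusted p = 3.27e-11), and the membrane protein gene Ly6e rose from 98.9 ± 5.51 to 197 ± 17.6 CPM (0.99 ± 0.09, adjusted p = 2.98e-08). The Schlafen gene Slfn9 fell from 46.9 ± 0.764 to 11.3 ± 2.06 CPM (-2.05 ± 0.13, adjusted p = 1.08e-09). Cxcl10, an interferon-induced chemokine, had 2, 5 and 8 counts in floxed cells and 14, 16 and 10 in knockout cells on vehicle. Its change of 1.30 ± 0.50 (adjusted p = 0.0232) was not called without floxed replicate 1 or 2 or knockout vehicle replicate 1 or 2 (adjusted p from 0.0579 to 0.104).

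The 3 genes of ADP-ribosylation had lower values in knockout cells. Parp9, which pairs with the ubiquitin ligase Dtx3l, had 36, 44 and 40 counts in floxed cells, 25, 23 and 21 in knockout cells on vehicle and 16, 24 and 16 in those on oxybutynin. The genotypes did not overlap, and the change was -0.89 ± 0.26 (adjusted p = 0.00565). Parp14, a mono-ADP-ribosyltransferase, had 32, 26 and 36 counts in floxed cells, 25, 15 and 14 in knockout cells on vehicle and 11, 18 and 22 in those on oxybutynin (-0.89 ± 0.34, adjusted p = 0.0302). That call was lost without floxed replicate 1 (-0.80, adjusted p = 0.0938) or 3 (-0.81, 0.0922) or knockout vehicle replicate 2 (-0.75, 0.0745) or 3 (-0.69, 0.135). Dtx3l had 52, 79 and 110 counts in floxed cells and 80, 63 and 59 in knockout cells on vehicle, which overlapped (-0.34 ± 0.23, adjusted p = 0.207). Exons of Parp9 and Dtx3l overlap by 458 bases on opposite strands of chromosome 16, so their counts may not be separate.

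Signalling factors had log2 fold changes from -0.34 to 0.49 as tested. Stat2 was at 7.97, 8.12 and 8.85 CPM in floxed cells and 10.5, 10.3 and 11.1 in knockout cells on vehicle, a change of 0.35 ± 0.11 (adjusted p = 0.0124) that was not called without floxed replicate 1 (0.32, adjusted p = 0.0532). Irf1, which drives class I and immunoproteasome genes, was lower, at 10.1, 10.3 and 9.51 CPM in floxed and 8.99, 6.86 and 7.85 in knockout cells on vehicle (-0.34 ± 0.13, adjusted p = 0.0271). It was not called without floxed replicate 1 or 2 or knockout vehicle replicate 2 or 3 (adjusted p from 0.0522 to 0.0906). Irf3 (0.07 ± 0.09, adjusted p = 0.516), Irf7 (0.49 ± 0.34, 0.217) and Irf9 (-0.15 ± 0.14, 0.336) were not called. With the GC and length trend removed Stat2 was at 0.01 and not called (adjusted p = 0.951). Irf1 (-0.78, adjusted p = 8.45e-06), Irf3 (-0.51, 1.86e-05) and Irf9 (-0.43, 0.00858) were then called lower, and 0 of the 5 higher. All genes then gave 23.1% higher and 37.7% lower. Irf7, the amplifier of interferon production, had 8 to 26 counts per library.

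Upstream of them, 14 receptor, kinase and factor genes were tested, of which 8 rose and 2 fell (71.4% called, against 63.3% of all genes). With the GC and length trend removed 4 rose and 2 fell, where 23.1% of all genes were called higher and 37.7% lower. Stat3, a factor of cytokine signalling, rose by 0.91 ± 0.08 (adjusted p = 4.7e-08), the interferon-gamma receptor chain Ifngr2 by 0.86 ± 0.09 (adjusted p = 2.9e-07) and the interferon-lambda receptor Ifnlr1 by 1.72 ± 0.27 (adjusted p = 1.91e-05). Of the type I receptor chains, Ifnar2 rose by 0.44 ± 0.11 (adjusted p = 0.00151), a call lost without that trend (0.13, adjusted p = 0.235), and Ifnar1 was at 0.10 ± 0.08 (adjusted p = 0.278).

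Mavs, Trim25 and Adar rose, while the sensors Ifih1 and Dhx58 were not called. With the GC and length trend removed Trim25 alone of these was called higher (0.27), and Mavs (0.15, adjusted p = 0.0566) and Adar (0.09, 0.22) were not. Mavs was at 40.9, 44.8 and 42.8 CPM in floxed cells, 67.4, 64.6 and 69.4 in knockout cells on vehicle and 71.3, 70.2 and 74.9 in those on oxybutynin. Its rise was 1.57-fold (log2 fold change 0.65 ± 0.08, adjusted p = 1.85e-06), with no overlap between genotypes. Trim25, a ubiquitin ligase of the RIG-I pathway, was at 42.8, 43.0 and 44.2 CPM in floxed and 61.9, 64.5 and 58.8 in knockout cells on vehicle (0.51 ± 0.09, adjusted p = 0.000106). Adar, which edits double-stranded RNA and so limits its sensing, was at 47.5, 48.9 and 50.3 CPM in floxed and 65.2, 61.3 and 72.2 in knockout cells on vehicle (0.44 ± 0.08, adjusted p = 0.000213). Ifih1, which encodes MDA5, was at 1.73 ± 0.196 and 1.59 ± 0.226 CPM (-0.12 ± 0.24, adjusted p = 0.679). Dhx58, which encodes the related LGP2, had 18, 16 and 39 counts in floxed and 28, 38 and 43 in knockout cells on vehicle (0.47 ± 0.31, adjusted p = 0.196) and was called without floxed replicate 3 (0.95, adjusted p = 0.0187).

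Of 18 other sensors, adaptors and kinases 14 were tested, with 6 higher and 6 lower (85.7% called, against 63.3% of all genes). With the GC and length trend removed 4 were higher and 5 lower, where 23.1% of all genes were called higher and 37.7% lower. Ddx58, which encodes RIG-I, was at 0.35 ± 0.15 (adjusted p = 0.0488), a call lost when any library other than knockout vehicle replicate 3 was left out (adjusted p from 0.0537 to 0.197), and with DESeq2 (0.052) or limma-voom (0.066). Eif2ak2, which encodes the double-stranded RNA kinase PKR, fell from 20.0, 19.2 and 21.5 CPM to 8.24, 9.04 and 7.81 (-1.27 ± 0.11, adjusted p = 3e-08). Tlr3, the endosomal receptor for double-stranded RNA, fell from 59, 84 and 83 counts to 21, 42 and 32 (-1.35 ± 0.27, adjusted p = 0.000284), whereas Unc93b1, which carries such receptors to endosomes, rose by 1.46 ± 0.12 (adjusted p = 2.02e-08). The kinase Tbk1, which phosphorylates IRF3, fell by 0.99 ± 0.10 on the log2 scale (adjusted p = 2.24e-07). On the DNA side, Cgas fell by 0.46 ± 0.16 (adjusted p = 0.0182), a call lost without floxed replicate 2 (-0.36, adjusted p = 0.103) or knockout vehicle replicate 1 (-0.37, 0.0811). Tmem173, which encodes STING, rose by 0.26 ± 0.09 (adjusted p = 0.0121), with the sign turned (-0.086) without the GC and length trend, a call lost without floxed replicate 1 (0.25, 0.0503) or 3 (0.24, 0.0577).

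Genes that clear or restrain nucleic acid signals also split. Of 14 listed, 13 were tested, with 4 higher and 5 lower (69.2% called, against 63.3% of all genes). With the GC and length trend removed 3 were higher and 6 lower, where 23.1% of all genes were called higher and 37.7% lower. Pnpt1 and Supv3l1 encode the nuclease and helicase that degrade mitochondrial double-stranded RNA, and they moved in opposite directions. Pnpt1 fell from 46.6, 45.9 and 45.6 CPM to 19.6, 20.2 and 19.7 (-1.22 ± 0.09, adjusted p = 2.77e-09). Supv3l1 rose from 32.1, 31.3 and 30.5 CPM to 46.4, 49.0 and 54.1 (0.67 ± 0.09, adjusted p = 3.58e-06). Ptpn2, a phosphatase that acts on JAK and STAT proteins, fell by 1.03 ± 0.10 on the log2 scale (adjusted p = 1.74e-07), a call lost without that trend (-0.24, adjusted p = 0.0631), and the lysosomal nuclease gene Dnase2a rose by 1.14 ± 0.12 (adjusted p = 2.29e-07). Samhd1, which depletes nucleotides, fell by 0.36 ± 0.12 (adjusted p = 0.0124), a call lost without knockout vehicle replicate 3 (-0.28, adjusted p = 0.0692). The DNA exonuclease gene Trex1 was listed at 0 in every library, and 1147 bases of its exons are shared with Atrip on the same strand.

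**Figure D4:**
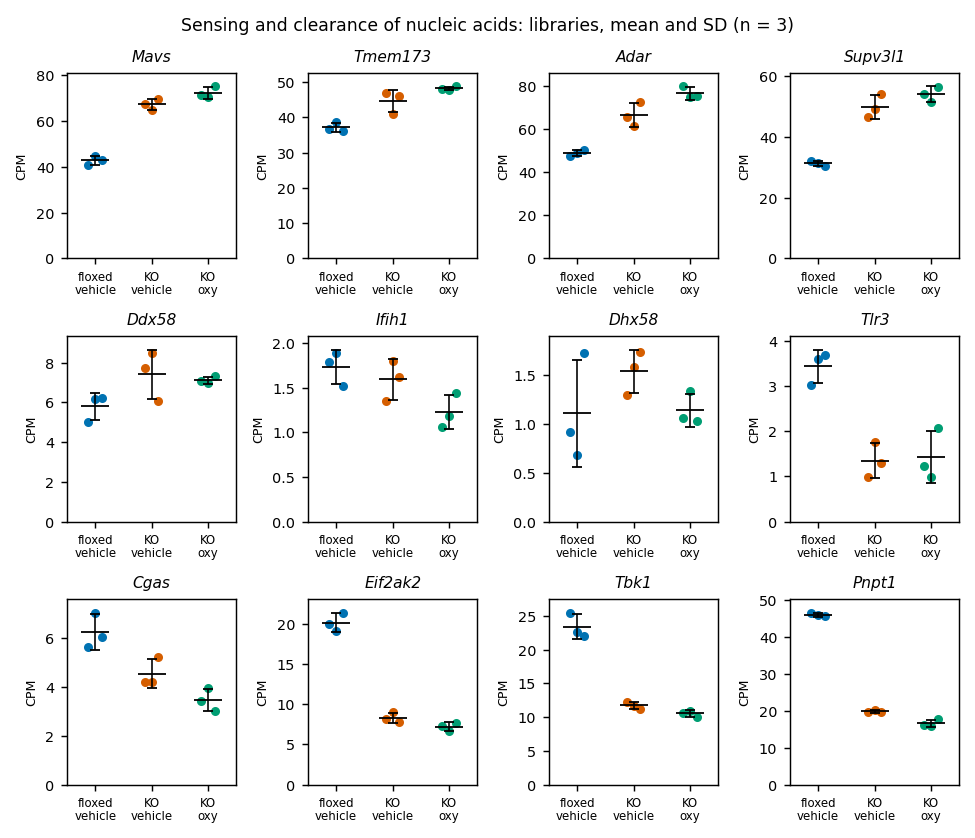
Sensors, adaptors and clearance genes by library, in counts-per-million on linear axes from 0, with the mean (long bar) and SD (short bars) of 3 libraries per group. Mavs, Tmem173, Adar and Supv3l1 are higher in knockout than in floxed libraries (once the GC and length trend is removed, Mavs and Adar are not called and Tmem173 turns sign), Tlr3, Eif2ak2, Tbk1 and Pnpt1 are lower, and Ifih1 and Dhx58 overlap between floxed and knockout vehicle.

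Base composition can affect counts from library to library, and the 31 genes had a median GC content of 51.9%, against 49.8% for tested protein-coding genes. After a trend on GC and length had been taken out of every library, the median of the 31 genes went from 0.47 to 0.21 and that of all genes from -0.01 to -0.13. Then 9 genes were called higher and 6 lower, where all genes gave 23.1% and 37.7%. B2m rose further (1.85, adjusted p = 2.35e-12), and Ifi27 (0.85), Bst2 (0.86), Ifitm3 (0.39), Rnf213 (0.68), Ifi35 (0.33), Trim25 (0.27) and Xaf1 (0.78) were still called higher. Psmb8 (1.47) is among the 9, but it passed the filter on low counts only through knockout libraries, so its call is no independent support. Mavs (0.15, adjusted p = 0.0566), Adar (0.09, 0.22), Stat2 (0.01, 0.951), Psmb9 (0.59, 0.119) and Oasl1 (0.72, 0.159) lost their calls, and Tap1 changed sign (-0.17, adjusted p = 0.0574). Irf3 was then called lower (-0.51, adjusted p = 1.86e-05), as were Irf9 (-0.43) and Ifitm2 (-0.59), while Parp9 (-0.96), Irf1 (-0.78) and Cmpk2 (-0.96) were still lower and Parp14 was not called (-0.70, adjusted p = 0.0773). Outside the set, H2-K1 (1.96), H2-D1 (1.57), Nlrc5 (2.14), Lgals3bp (2.53), Slfn9 (-1.59), Eif2ak2 (-0.92), Pnpt1 (-0.42) and Supv3l1 (0.37) kept their call, Tmem173 (-0.086) and Psmb5 (-0.11) changed sign, and Psmb7 and Psmb10 became called in opposite directions. Groups played no part in fitting that trend, so any genotype difference that follows GC or length goes with it.

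**Figure D5:**
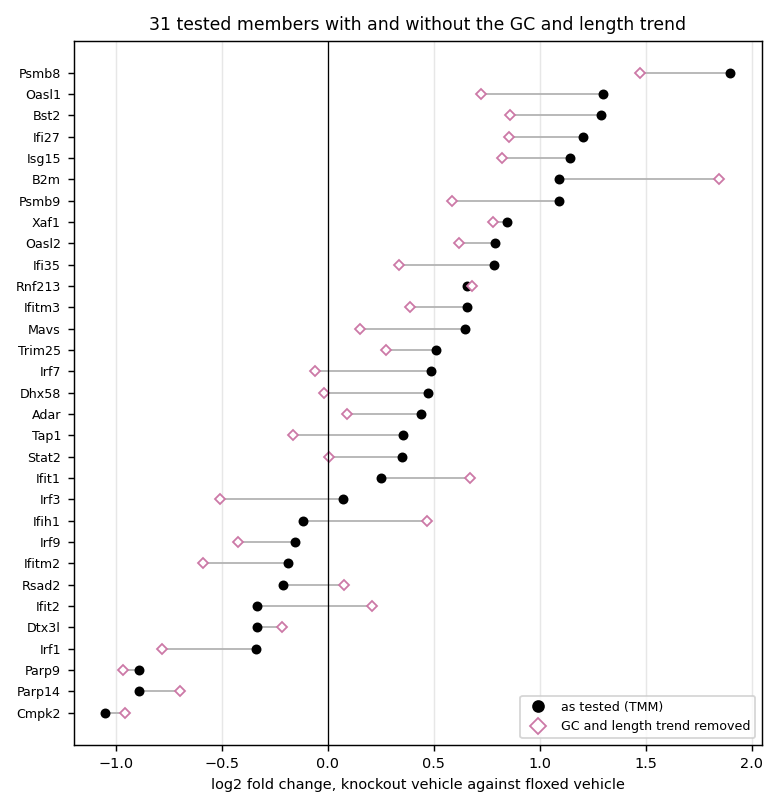
Log2 fold change of the 31 tested genes between knockout and floxed vehicle as tested (black points) and with the GC and length trend of every library taken out (open diamonds), joined by a grey line per gene. Most diamonds lie left of their points; B2m moves right from 1.09 to 1.85, and Irf3 crosses 0 from 0.07 to -0.51.

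The second comparison asks whether oxybutynin altered these genes in cells that lack Uqcrfs1. None of the 31 genes was called higher or lower by edgeR, where 0.0127% of all genes tested were called (0.00636% higher and 0.00636% lower). DESeq2 and limma-voom also called 0 of the 31, where DESeq2 called 7.21% of all genes and limma-voom 0.0191%. At an unadjusted p under 0.05 there were 6 of the 31, against 26.0% of all genes. The median log2 fold change was -0.03 for the set and -0.00 for all genes, and the groups did not overlap for 8 genes, where 22.1% of all genes did not. B2m stood at 193 ± 24.9 CPM with vehicle and 177 ± 7.22 with oxybutynin (-0.13 ± 0.09, adjusted p = 0.376). Ifi27 (0.10 ± 0.12), Ifitm3 (0.05 ± 0.09), Mavs (0.10 ± 0.08) and Rnf213 (-0.10 ± 0.09) lay close to 0, with adjusted p-values of at least 0.414. The widest differences were those of genes with few counts, from -0.82 ± 0.53 for Isg15 to 0.63 ± 0.43 for Cmpk2, and Ifitm2 at 0.58 ± 0.20 (adjusted p = 0.103).

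That result depended on knockout vehicle replicate 3. Without it 4188 genes (26.0%) were called, among them Adar (0.27, adjusted p = 0.0161), Tap1 (0.30, 0.0221) and Ifitm2 (0.70, 0.0478) as higher and B2m (-0.23, 0.0185) as lower with oxybutynin, of 32 genes of the set then tested. H2-D1 (0.39, adjusted p = 0.0413), Ly6e (0.30, 0.0172) and Pnpt1 (-0.27, 0.0367) were called in that fit too. Ifitm2 illustrates the spread behind these values. It was at 19.7, 8.99 and 17.7 CPM in knockout cells on vehicle and 19.1, 22.9 and 27.3 in those on oxybutynin, so the groups overlapped and replicate 2 with vehicle was the lowest of all 9. With all libraries, edgeR called 0 genes in the lists of receptors, other sensors, restrainers, other interferon-stimulated genes and other class I genes, where 0.0127% of all genes were called. At an unadjusted p under 0.05 these lists held 3 of 14, 3 of 14, 3 of 13, 4 of 30 and 5 of 18 genes tested, against 26.0% of all genes. Of the genes named here, DESeq2 called Canx (-0.41, adjusted p = 0.00407), Pdia3 (-0.33, 0.018) and Jak2 (-0.32, 0.036) lower with oxybutynin.

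The third comparison set knockout oxybutynin against floxed vehicle, and it shares its libraries with the other comparisons. Of the 31 genes, 15 were higher and 5 lower, with 71.9% of all genes called, 35.1% higher and 36.9% lower. The groups did not overlap for 24 genes, against 78.9% of all genes. Of the class I genes B2m (0.97 ± 0.09 on the log2 scale), Psmb9 (0.94 ± 0.34) and Tap1 (0.57 ± 0.10) were called higher again. H2-K1 was at 2.59 ± 0.13 and Nlrc5 at 2.58 ± 0.17. Without the GC and length trend Tap1 was at -0.084 and not called, where the median of all genes was -0.14. Psmb8 (2.19 ± 0.50) was called higher too and is among the 15. It passed the filter on low counts only through knockout libraries, so its test is no independent support for the group. Ifi27 (1.30 ± 0.13), Bst2 (1.35 ± 0.26), Ifi35 (0.96 ± 0.15), Mavs (0.75 ± 0.08), Ifitm3 (0.71 ± 0.09), Adar (0.64 ± 0.08), Rnf213 (0.55 ± 0.09), Trim25 (0.48 ± 0.09) and Stat2 (0.40 ± 0.11) were also higher. With the GC and length trend removed 9 genes were called higher and 3 lower, against 24.3% and 39% of all genes, and Mavs (0.11, adjusted p = 0.146), Stat2 (0.01, 0.908) and Psmb9 (0.30, 0.43) were not called. Psmb9 lost its call without floxed replicate 1 (0.81, adjusted p = 0.0677) or knockout oxybutynin replicate 1 (0.77, 0.0799).

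Irf7, Irf3, Ifit2, Rsad2 and Dtx3l were called in this comparison and not between the vehicle groups. The reverse held for Irf1, Cmpk2, Xaf1 and Oasl1. Irf7 had 8, 15 and 11 counts in floxed cells, 17, 14 and 20 in knockout cells on vehicle and 24, 24 and 26 in those on oxybutynin (0.98 ± 0.33 against floxed, adjusted p = 0.0108). Irf3 was at 0.25 ± 0.09 (adjusted p = 0.0236), or -0.52 without the GC and length trend, a call lost without floxed replicate 1 or 2 or knockout oxybutynin replicate 1 (adjusted p from 0.0612 to 0.119). Ifit2 was at 6.33, 6.57 and 7.07 CPM in floxed cells, 4.89, 5.69 and 5.26 in knockout cells on vehicle and 4.33, 3.11 and 4.22 in those on oxybutynin (-0.78 ± 0.16 against floxed, adjusted p = 0.000235), so the 3 groups did not overlap. Rsad2 fell from 41, 46 and 46 counts in floxed cells to 31, 28 and 31 in knockout cells on oxybutynin (-0.70 ± 0.22, adjusted p = 0.00871), and Parp9 was at -1.24 ± 0.27 (adjusted p = 0.000425). Parp14 (-1.02 ± 0.35, adjusted p = 0.0135) lost its call without knockout oxybutynin replicate 1 (-0.77, 0.0781). Dtx3l (-0.56 ± 0.23, adjusted p = 0.0368) lost it without floxed replicate 3 (-0.29, 0.288) or any knockout oxybutynin library (adjusted p from 0.0747 to 0.0798). With the GC and length trend removed Ifit2 (-0.075, adjusted p = 0.662), Rsad2 (-0.27, 0.286), Irf7 (0.28, 0.454), Dtx3l (-0.30, 0.25) and Parp14 (-0.66, 0.0928) lost their calls in this comparison. The 3 genes then called lower were Irf3 (-0.52, adjusted p = 1.18e-05), Irf1 (-0.69, 2.46e-05) and Parp9 (-1.23, 0.000374). The difference between oxybutynin and vehicle for these genes is the second comparison, in which none was called.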

How the data were processed

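RNA was extracted with Trizol and 2 µg went into a directional library kit, per the labels' protocols. The authors deposited 1 table of raw counts per gene for 9 libraries in 3 groups. Trim Galore 0.6.0, cutadapt, FastQC, STAR 2.7.0e, DESeq2 1.26.0 and the mouse build GRCm38 are named, per the submitters' processing notes. The counting tool, strand option and gene annotation were not given in the sources used here. Of 55536 gene IDs, 55450 matched GENCODE M21, from which symbols, exons and lengths were taken.

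Genes with low counts were removed (filterByExpr over the 3 groups), which left 15720. Libraries were scaled by TMM and fitted together with edgeR 4.0.16 (R 4.3.3, quasi-likelihood, 6 residual degrees of freedom), with Benjamini-Hochberg adjustment over all genes tested and calls at 0.05. Totals of 19604971 to 26226949 counts set the precision, and genes under about 10 counts per library are imprecise. TPM from exon lengths served only to rank genes. Alternatives were DESeq2 1.42.0, limma 3.58.1 (voom), other scalings and filters, a fit of only the groups compared, a threshold of 0.01, removal of a GC and length trend (splines with 5 degrees of freedom each), and leaving out each library. The scripts were tested on simulated data.

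The 37 genes and the lists were chosen with earlier results of these data known. All 37 genes were accounted for. From each other list, up to 3 called genes per comparison with the lowest adjusted p were named, with a set of sensing and class I genes always named, of which a gene is not reported here. Tap2, Erap1, Canx, Pdia3, Ifnar1, Ifnar2, Psmb10 and the cell type markers were named after their values were seen. Promoters were to be printed for the 2 called genes with the largest change and the 2 highest uncalled genes with a motif. Of the 4 so chosen, Ifitm2 is printed, Psmb8 is not because its window lies in an exon, and Oasl1 and Ifit2 were replaced because they had no match or 1 match at the window's edge.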

Additional observations from a re-analysis of the deposited data

How the results depend on the processing

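Between knockout and floxed vehicle, 15 genes of the set were called higher, 9 with the GC and length trend removed, 12 at an adjusted p under 0.01, 19 of 37 with no filter and 13 to 17 when each library was left out. The 4 called lower became 6 with the GC trend removed, 2 with no filter on low counts, 2 when only the groups compared were fitted, 1 at an adjusted p under 0.01 and 1 to 4 when each library was left out. Between knockout oxybutynin and knockout vehicle, the 0 higher and 0 lower became 1 higher with no filter, and leaving out each library gave 0 to 3 higher and 0 to 1 lower, with 3 and 1 without knockout vehicle replicate 3. Over all genes, the 2 calls of that comparison became 1134 with DESeq2, 1099 with no filter, 158 with library totals as the only scaling, 7 with RLE scaling, 9 with the GC trend removed, 63 without knockout vehicle replicate 2, 4188 without replicate 3 and 0 to 3 without any other library. Between knockout oxybutynin and floxed vehicle, 15 higher became 9 with the GC trend removed and 13 to 18 with each library left out, and 5 lower became 3 with the GC trend removed, 3 at an adjusted p under 0.01 and 3 to 5 with each library left out. With the GC trend removed, the median of all genes was -0.13 between the vehicle groups and -0.14 between knockout oxybutynin and floxed vehicle. Of the pathway genes named and called in either fit, the sign turned between the vehicle groups for Irf3 (-0.51), Psmb10 (-0.28), Tap1 (-0.17), Psmb5 (-0.11) and Tmem173 (-0.086). The myoblast markers Des (-0.15), Pax7 (-0.23), Myod1 (-0.35) and Myf5 (0.25) turned there too. Between knockout oxybutynin and floxed vehicle the sign turned for Irf3 (-0.52), Psmb10 (-0.43), Tap1 (-0.084), Psmb5 (-0.12), Ifnar1 (-0.21) and Tmem173 (-0.053). In both comparisons Tap1, Psmb5 and Tmem173 were then not called. The causes were not tested. Apart from the stricter threshold, 14 of the 31 genes kept their side of the threshold between the vehicle groups under every alternative run, as did 27 and 17 in the other comparisons. No paired analysis was possible because each sample title carries a number of its own and the groups share none. Genes with few counts, such as Psmb8, Oasl1, Isg15 and Cmpk2, are limited by depth.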
